A study of Mus musculus with 4 samples.

Results

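The phagocyte NADPH oxidase genes analysed here are *Cybb*, *Cyba*, *Ncf1*, *Ncf4*, *Rac2*, *Rac1*, and *Rap1a*. They were taken by gene name from the deposited gene tables and make up 7 of the 55401 genes listed. All 7 of 7 were also among the 19806 genes abundant enough to be tested. The samples were 4 bulk RNA-seq libraries of CD45+ immune cells sorted from the dura mater of wild-type C57BL/6J male mice. The mice received a single injection of 2 μl of serotype 9 adeno-associated virus (AAV) into the cisterna magna, at 4 wk of age per the study's methods. In 2 libraries the virus was AAV-mVEGF-C, which encodes full-length mouse VEGF-C, the ligand of the lymphatic receptor VEGFR-3. In the other 2 it was AAV-CTRL, which encodes an Ig fusion of VEGFR-3 ectodomains without VEGF-C binding, so that the controls also carry a vector and a secreted protein. Each library came from a pool of mice, so the spread between libraries of a group is the spread between pools, and the libraries are named AAV-CTRL 1 and 2 and AAV-mVEGF-C 1 and 2 after the experiment number in their labels. Where a pair of values is given for a group, library 1 comes first. The comparison asks whether the transcripts of the oxidase differed between dural immune cells of the 2 groups.

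The oxidase is the enzyme complex with which neutrophils, monocytes, and macrophages make superoxide, by passing electrons from cytosolic NADPH across a membrane to oxygen. Its catalytic core is a membrane heterodimer of gp91phox, also called NOX2 (*Cybb*), and p22phox (*Cyba*). In resting cells the adaptor p47phox (*Ncf1*) and the phosphoinositide-binding p40phox (*Ncf4*) stay in the cytosol, and on activation they move to the membrane together with a GTP-bound Rac protein. Rac2 is the Rac GTPase typical of blood cells, Rac1 is made in nearly all cells, and Rap1a is a small GTPase that copurifies with the membrane core. Inherited loss of the core or adaptor chains causes chronic granulomatous disease, in which phagocytes take up microbes but kill them poorly.

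The core and adaptor genes are expressed together in phagocytes and shared one order of the libraries here, and the start regions of the 3 genes with an entry in the RefSeq promoter table (GRCm38.p6) are shown. Each sequence runs 5′ to 3′ on the gene's own strand, from 250 bases before to 50 bases after the annotated start. Capitals mark matches on either strand to the core GAGGAA bound by the myeloid factor PU.1, which reads TTCCTC on the other strand, to the box CCAAT, or to the GC box with the letters CCGCCC, which reads GGGCGG on the other strand. These 3 motifs were chosen after the sequences had been seen.
Cybb: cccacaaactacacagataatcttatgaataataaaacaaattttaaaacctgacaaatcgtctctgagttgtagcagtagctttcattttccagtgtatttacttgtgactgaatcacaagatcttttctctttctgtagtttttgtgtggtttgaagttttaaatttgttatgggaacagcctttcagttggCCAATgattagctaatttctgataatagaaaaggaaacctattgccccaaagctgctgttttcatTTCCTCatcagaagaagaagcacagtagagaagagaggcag
Cyba: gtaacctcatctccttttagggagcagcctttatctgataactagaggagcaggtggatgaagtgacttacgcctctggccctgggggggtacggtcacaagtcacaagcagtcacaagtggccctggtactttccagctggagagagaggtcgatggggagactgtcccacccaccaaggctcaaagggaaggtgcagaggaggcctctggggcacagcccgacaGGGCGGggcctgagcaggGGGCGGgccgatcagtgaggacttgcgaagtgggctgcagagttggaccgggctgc
Ncf1: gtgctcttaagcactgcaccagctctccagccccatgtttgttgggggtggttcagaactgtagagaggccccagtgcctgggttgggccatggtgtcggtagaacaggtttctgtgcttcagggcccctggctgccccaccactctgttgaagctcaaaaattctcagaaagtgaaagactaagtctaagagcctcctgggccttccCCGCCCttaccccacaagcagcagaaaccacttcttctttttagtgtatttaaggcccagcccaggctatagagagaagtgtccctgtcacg
The *Cybb* stretch lies at chrX:9469275-9469574 on the minus strand, that of *Cyba* at chr8:122432891-122433190 on the minus strand, and that of *Ncf1* at chr5:134229576-134229875 on the minus strand. The *Cybb* start shown is not the outermost start of that gene in GENCODE, which lies upstream of the stretch at 9487771. The *Cybb* start holds CCAAT at 56 to 52 bases before the start and TTCCTC at bases 10 to 15 of the transcript. *Cyba* holds GGGCGG at 24 to 19 and again at 6 to 1 bases before the start, and *Ncf1* holds CCGCCC at 42 to 37 bases before it. Such matches are common. Of 32851 promoters of the same length, 28.3% hold GAGGAA, 37.4% hold CCAAT, and 35.7% hold CCGCCC, counting both strands. The letters are a description of these starts and show no binding.

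The libraries held 32520709 to 46409700 reads assigned to genes. AAV-CTRL 1 stood apart, because it had the most reads but the fewest genes with a read, 20993 against 29230 to 37535 in the other 3. It was also the library in which 5 of the 7 oxidase genes were highest, so values are given below with and without it. Being highest in AAV-CTRL 1 was frequent, at 32.6% of all genes tested and 43.3% of the 5340 genes with a mean log2 CPM of 5 or more (CPM, reads of a gene scaled to the size of its library). CD45 itself (*Ptprc*) had 1150 and 945 CPM in the AAV-CTRL libraries and 1084 and 1038 CPM in the AAV-mVEGF-C libraries. Fibroblast markers such as *Col1a1* were also present in every library, at 158 to 467 CPM.

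Per transcript length, all 7 genes were among the more abundant transcripts of the dural immune cells. The deposited TPM values are scaled by transcript length and to the same total in each library, which allows genes to be compared within a library. By mean TPM over the 4 libraries the order was *Cyba* at 239 ± 68.4 (SD, n = 4), *Rac2* at 205 ± 32.7, *Cybb* at 165 ± 29.6, *Ncf1* at 164 ± 23.3, *Rac1* at 131 ± 10.2, *Ncf4* at 70.8 ± 15.9, and *Rap1a* at 45.8 ± 8.67 TPM. Among the 19806 genes tested these means ranked from 306 for *Cyba* to 1557 for *Rap1a*. Among the first 4 genes, neighbours in this order did not separate. *Cyba* exceeded *Rac2* in 1 of 4 libraries, *Rac2* exceeded *Cybb* in 3 of 4, and *Cybb* exceeded *Ncf1* in 2 of 4. *Rac1* lay below *Ncf1*, *Ncf4* below *Rac1*, and *Rap1a* below *Ncf4* in 4 of 4 libraries, with no overlap of their ranges.

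None of the 7 oxidase genes passed the test between AAV-mVEGF-C and AAV-CTRL cells. With edgeR's quasi-likelihood test and Benjamini-Hochberg adjustment over all genes tested, 0 of 7 had an adjusted p under 0.05, and 0 of 7 had an unadjusted p under 0.05. The percentage of all tested genes called was 0 after adjustment and 2.64 (523 genes) before it, 1.46 higher and 1.18 lower. DESeq2 also called 0 of 7 (0.389% of all genes with an adjusted p), as did limma-voom (0%), edgeR with a block for the experiment number (0.0555%), and edgeR with the pools paired crosswise (0.273%). By sign, 2 of the 7 log2 fold changes were above 0 and 5 below 0, with a median of -0.17 against 0.0034 over all genes tested. Every adjusted p was 0.999. In the plot of CPM by library, the 4 core and adaptor genes shared one order of the libraries, whereas the GTPases did not.

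**Figure D1:**
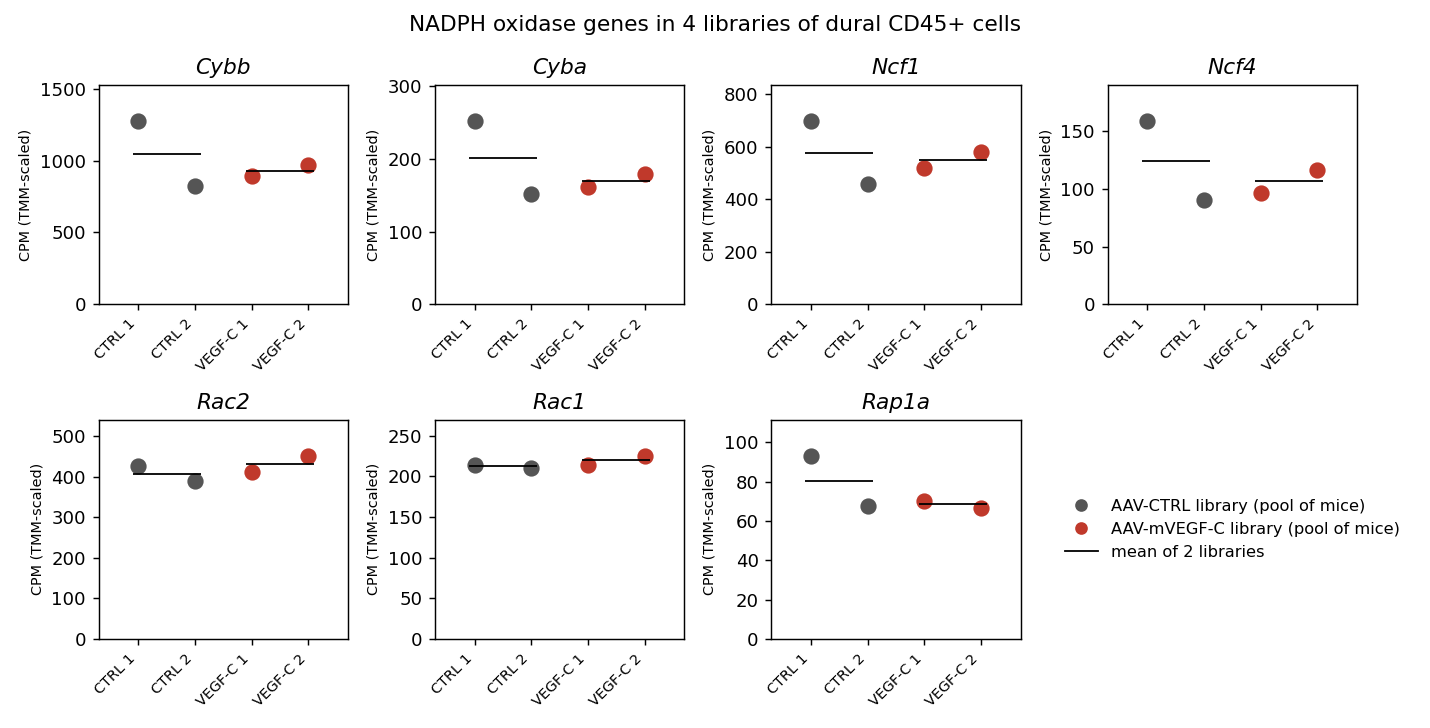
CPM (reads scaled to library size with TMM factors, linear axes from 0) of the 7 NADPH oxidase genes in each of the 4 libraries, with gray points for AAV-CTRL, red points for AAV-mVEGF-C, and a line at each group's mean. In the panels of *Cybb*, *Cyba*, *Ncf1*, and *Ncf4*, AAV-CTRL 1 is the highest point, AAV-CTRL 2 the lowest, and both AAV-mVEGF-C libraries lie between them.

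*Cybb*, on chromosome X at 9435252 to 9487771 (GRCm38, minus strand, ENSMUSG00000015340.10), encodes the catalytic chain. It had 1274 and 826 CPM in control pools 1 and 2, against 891 and 970 CPM with AAV-mVEGF-C. Both AAV-mVEGF-C values thus fell between the AAV-CTRL values, and the AAV-CTRL libraries differed from each other 1.54-fold. The group means were 1050 ± 317 and 931 ± 55.9 CPM (SD, n = 2 each), and edgeR's log2 fold change was -0.17 (SE 0.24, 95% interval -0.75 to 0.41, adjusted p = 0.999).

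*Cyba*, on chromosome 8 at 122424776 to 122432930 (minus strand, ENSMUSG00000006519.11), encodes the partner that stabilises gp91phox and docks p47phox. Its values were 252 and 152 CPM in control pools 1 and 2, against 161 and 179 CPM with AAV-mVEGF-C. The order of the libraries was that of *Cybb*, with a 1.66-fold gap between the controls. The log2 fold change was -0.25 (SE 0.26, 95% interval -0.87 to 0.38).

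*Ncf1*, on chromosome 5 at 134220053 to 134229625 (minus strand, ENSMUSG00000015950.13), encodes the adaptor whose phosphorylation starts assembly. It had 696 and 459 CPM in control pools 1 and 2, against 520 and 579 CPM with AAV-mVEGF-C. The AAV-mVEGF-C values again lay inside the 1.51-fold range of the controls. Its log2 fold change was -0.07 (SE 0.23, 95% interval -0.64 to 0.50). Exons of *Ncf1* share 408 bases with *Gtf2ird2* on the opposite strand, which had 308 to 426 reads per library. How the counting treated strand is not given in the sources used here, so some reads could belong to either gene.

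*Ncf4*, on chromosome 15 at 78244801 to 78262580 (plus strand, ENSMUSG00000071715.12), encodes p40phox, which holds the complex at phosphoinositide-rich phagosome membranes. It had 159 and 90.5 CPM in control pools 1 and 2, against 96.7 and 117 CPM with AAV-mVEGF-C. With a ratio of 1.75 between the AAV-CTRL libraries, *Ncf4* had the widest control gap of the 7 genes. The log2 fold change was -0.22 (SE 0.28, 95% interval -0.91 to 0.46).

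The 4 core and adaptor genes shared an order of libraries that did not separate the groups. In 4 of these 4 genes, and 4 of the 7, both AAV-mVEGF-C libraries lay between the AAV-CTRL libraries, against 25.7% of all genes tested and 27.6% of those with a mean log2 CPM of 5 or more. The full order, AAV-CTRL 1 above AAV-mVEGF-C 2 above AAV-mVEGF-C 1 above AAV-CTRL 2, was shared by 4 of 7 members and by 5.49% of all genes tested. Together these 4 genes took 0.229% of assigned reads in control pool 1 (95% Wilson interval 0.228 to 0.231) and 0.158% in control pool 2 (0.156 to 0.159). With AAV-mVEGF-C their share was 0.172% (0.170 to 0.173) and 0.180% (0.179 to 0.181). These intervals cover counting error only and are far narrower than the gap between the control pools.

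*Rac2*, on chromosome 15 at 78559167 to 78572783 (minus strand, ENSMUSG00000033220.7), is on the same chromosome as *Ncf4*, 296.587 kb from it. It had 425 and 390 CPM in control pools 1 and 2, against 411 and 450 CPM with AAV-mVEGF-C. The groups overlapped, and the controls differed only 1.09-fold. Its log2 fold change was 0.08 (SE 0.16, 95% interval -0.31 to 0.47), and 0.24 on the log2(TPM + 1) scale.

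*Rac1*, on chromosome 5 at 143503634 to 143528036 (minus strand, ENSMUSG00000001847.14), had 215 and 210 CPM in control pools 1 and 2, against 215 and 225 CPM with AAV-mVEGF-C. It was the steadiest of the 7 genes and the only member in which both AAV-mVEGF-C libraries exceeded both AAV-CTRL libraries, by a margin under 1 CPM between the nearest libraries. Such separation occurred upward in 16.8% and downward in 15.2% of all genes tested. The log2 fold change was 0.05 (SE 0.15, 95% interval -0.31 to 0.41), and in TPM its sign turned, to -0.12 on the log2(TPM + 1) scale. Its exons share 2309 bases with *Daglb* on the opposite strand, which had 1811 to 2279 reads per library.

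*Rap1a*, on chromosome 3 at 105727267 to 105801336 (minus strand, ENSMUSG00000068798.10), had 92.9 and 67.4 CPM in control pools 1 and 2, against 70.2 and 66.7 CPM with AAV-mVEGF-C. AAV-CTRL 1 alone was high, and the other 3 libraries lay close together. The log2 fold change was -0.23 (SE 0.20, 95% interval -0.71 to 0.26). In TPM, *Rap1a* had 57.4 and 47.4 in the AAV-CTRL libraries and 39.1 and 39.2 in the AAV-mVEGF-C libraries, so that the groups did not overlap on that scale, a pattern seen downward in 28.5% of all genes tested. It was the only member whose estimated reads were not whole numbers, in 4 of 4 libraries, so its reads rest on an estimate. The 3 GTPases together took 0.0690 to 0.0724% of reads in the 4 libraries.

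The direction of the core and adaptor genes rested on AAV-CTRL 1. Without that library, the log2 fold changes were 0.17 for *Cybb*, 0.16 for *Cyba*, 0.26 for *Ncf1*, 0.24 for *Ncf4*, and 0.02 for *Rap1a*, all above 0. Without AAV-CTRL 2 they were -0.45, -0.57, -0.34, -0.58, and -0.44. In that fit *Cyba*, *Ncf4*, and *Rap1a* had unadjusted edgeR p-values of 0.0047, 0.0057, and 0.0131 (adjusted p = 0.051, 0.054, and 0.078), against 11.6% of all genes lower at an unadjusted p under 0.05. Fits without 1 control library assume that the remaining one varies like the AAV-mVEGF-C pair. *Rac2* and *Rac1* stayed above 0 in each of the 4 fits that left out a library.

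**Figure D2:**
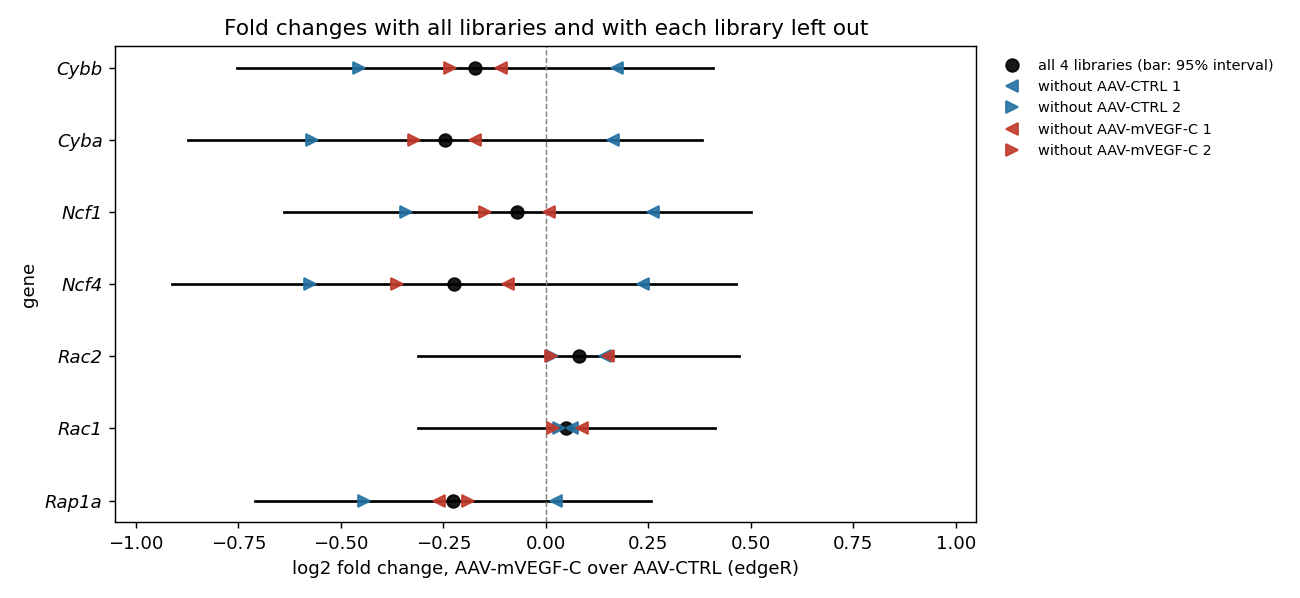
Log2 fold change of AAV-mVEGF-C over AAV-CTRL for each oxidase gene from edgeR (x axis), with all 4 libraries (black point, bar for the 95% interval) and with each library left out in turn (triangles). All 7 intervals include 0, and for *Cybb*, *Cyba*, *Ncf1*, *Ncf4*, and *Rap1a* leaving out AAV-CTRL 1 or AAV-CTRL 2 puts the value on opposite sides of 0.

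Ratios between chains of the complex were taken within each library. The *Cyba* to *Cybb* ratio of TPM was 1.63 and 1.38 in control pools 1 and 2, against 1.34 and 1.37 with AAV-mVEGF-C. The *Ncf4* to *Ncf1* ratio of TPM was 0.478 and 0.423 in the controls and 0.404 and 0.411 in the AAV-mVEGF-C libraries. Both ratios were therefore lower in each AAV-mVEGF-C library than in each AAV-CTRL library, with mean ratios 0.901 and 0.904 times those of the controls. For *Cyba* to *Cybb* the nearest libraries were AAV-CTRL 2 at 1.379 and AAV-mVEGF-C 2 at 1.375. Without AAV-CTRL 1 the mean *Cyba* to *Cybb* ratio was 0.984 times that of the control. The exact two-sided permutation test gave p = 0.333 for each of the 2 ratios, the smallest value that this test can give with 2 libraries against 2, so it cannot reach the threshold. Taken as reads, which are not scaled by length, the same ratios overlapped between groups, and AAV-CTRL 1 was highest in each.

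The *Rac2* to *Rac1* ratio of TPM was 1.22 and 1.54 in control pools 1 and 2, against 1.85 and 1.68 with AAV-mVEGF-C. The group means were 1.38 ± 0.220 and 1.76 ± 0.124 (SD, n = 2 each), a 1.28-fold difference (exact permutation p = 0.333, adjusted over the 3 TPM ratios 0.333). As reads the ratio was 1.98 and 1.85 in the controls and 1.91 and 2.00 in the AAV-mVEGF-C libraries, with a fold of 1.02 between groups and overlap. The length that reads and TPM together imply for *Rac2* was 2030 bases in AAV-CTRL 1 and 1413, 1303, and 1467 bases in the other libraries. This length was scaled on 531 to 660 genes per library with a single annotated transcript, and GENCODE lists *Rac2* transcripts of 3038, 459, and 254 bases. The highest implied length of *Rac2* was 1.56 times the lowest, against 1.04 to 1.11 times for the other members, a median of 1.12 over 5027 genes with enough reads, and 4.38% of those genes at or above *Rac2*. The low *Rac2* TPM of AAV-CTRL 1 thus came with an ordinary read count and a longer assigned length.

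**Figure D3:**
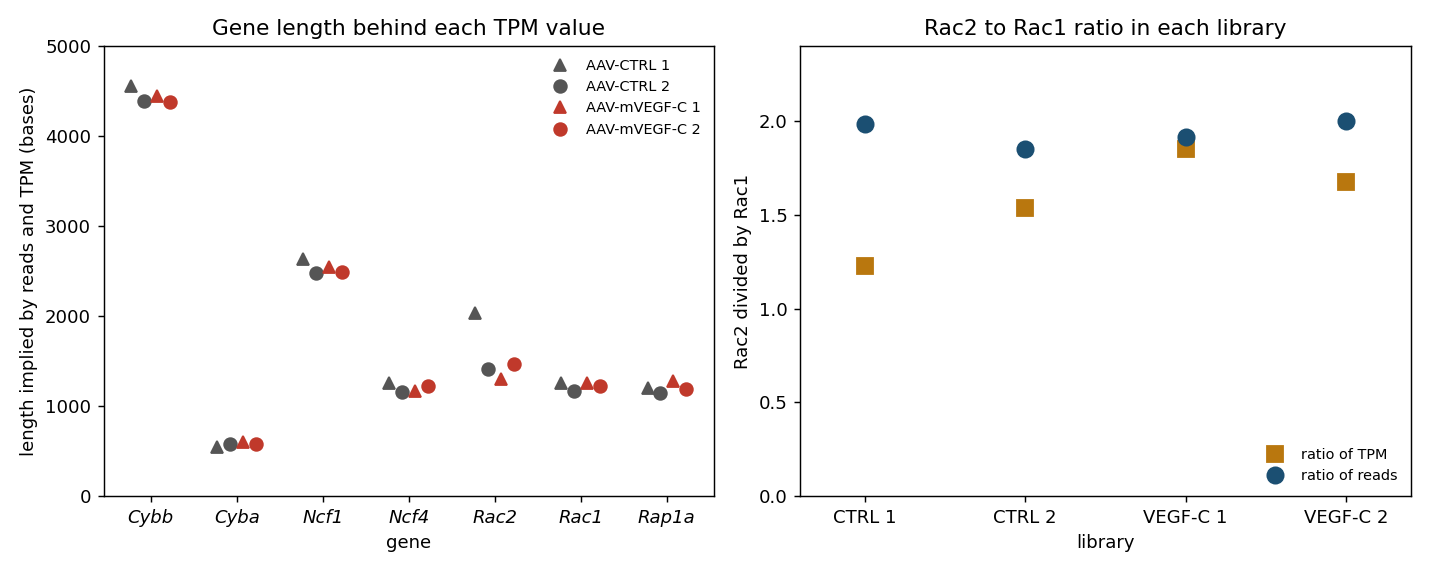
Left, transcript length in bases implied by reads and TPM for each oxidase gene in each library (gray, AAV-CTRL; red, AAV-mVEGF-C; triangles, library 1; circles, library 2). Right, *Rac2* divided by *Rac1* in each library, as TPM (squares) and as reads (circles). The length behind the *Rac2* TPM is 2030 bases in AAV-CTRL 1 and at most 1467 in the others, and the TPM ratio of 1.22 in AAV-CTRL 1 sits beside a read ratio of 1.98.

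The cell types that use the oxidase also differed between the control pools. In bulk RNA, fewer cells of a type and less RNA per cell cannot be told apart. The summed CPM of 12 neutrophil markers, among them *S100a8*, was 27615 and 12862 in the control pools and 16537 and 18571 with AAV-mVEGF-C. This is the library order of *Cybb*, *Cyba*, *Ncf1*, and *Ncf4*, with a ratio of 2.15 between the controls, and 10 of the 12 markers were highest in AAV-CTRL 1. *Ngp*, *Ltf*, and *S100a9* made up 10593, 5854, and 5693 of the 27615 CPM in that library. The remaining markers, *Retnlg* and *Csf3r*, were higher in both AAV-mVEGF-C libraries than in both controls. *Retnlg* had 302 and 193 against 318 and 343 CPM, and *Csf3r* 209 and 162 against 243 and 280 CPM. The 8 monocyte markers, among them *Ly6c2*, summed to 2619 and 1768 against 1915 and 2023 CPM, again in that order, but only 5 of the 8 were highest in AAV-CTRL 1. *Chil3* alone made up 1384 of the 2619 CPM there, and *Cx3cr1*, *Ace*, and *Treml4* were lowest in that library. The 10 border macrophage markers, among them *Mrc1*, had another order, with 1856 and 2712 against 1577 and 2310 CPM, and 0 of the 10 were highest in AAV-CTRL 1. The part of cell composition in the oxidase values was not tested.

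**Figure D4:**
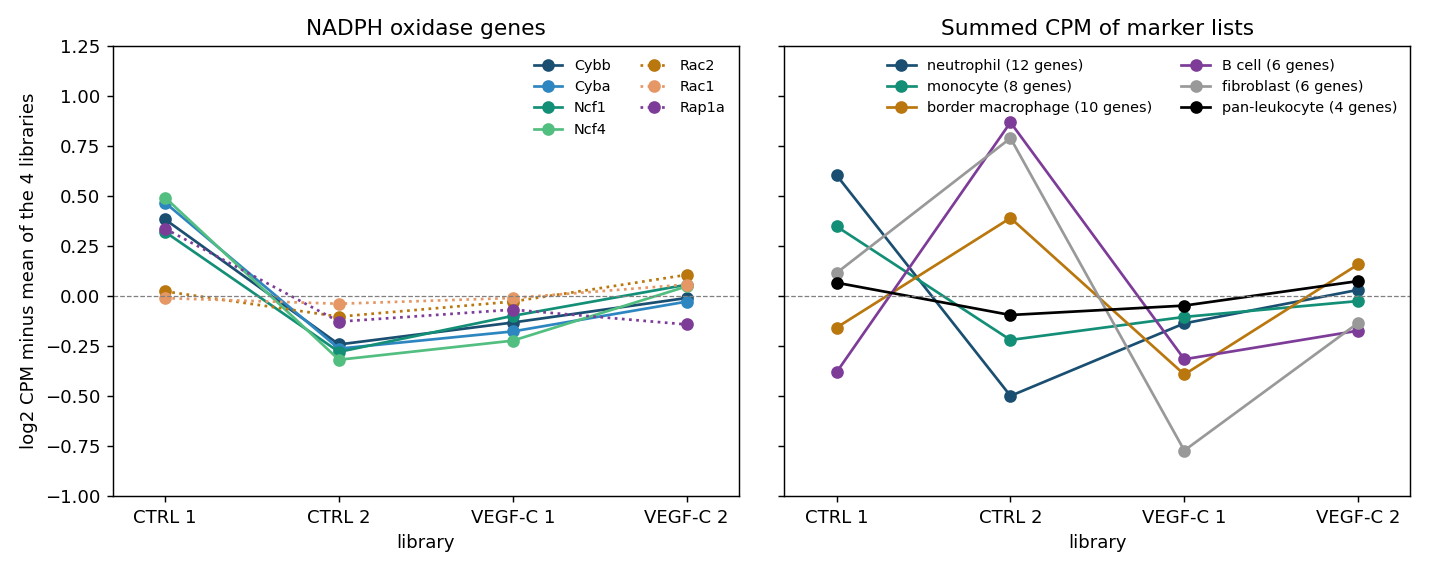
Log2 CPM minus the mean of the 4 libraries (y axis) in each library (x axis), for the 7 oxidase genes (left; dotted lines, GTPases) and for the summed CPM of 6 marker lists (right). The core and adaptor genes and the neutrophil and monocyte lists peak in AAV-CTRL 1 and are lowest in AAV-CTRL 2, the B cell, fibroblast, and border macrophage lists peak in AAV-CTRL 2, and *Rac1*, *Rac2*, and the pan-leukocyte list change least.

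Lists of other cells had further patterns. B cell markers summed to 273 and 648 CPM in the controls, against 285 and 315 CPM with AAV-mVEGF-C, and T cell markers to 213 and 191 against 253 and 248 CPM. Plasma cell markers summed to 435 and 446 CPM in the AAV-CTRL libraries and to 904 and 908 CPM in the AAV-mVEGF-C libraries, and 1 of them, *Derl3*, had 2 reads in AAV-CTRL 1. Most of that rise was in *Jchain*, with 261 and 268 against 670 and 679 CPM, whereas *Xbp1* had 119 and 105 against 128 and 127 CPM. Dendritic cell markers ranged from 283 to 363 CPM and NK cell markers from 52.5 to 78.6 CPM. Mast cell markers summed to 1681 and 1159 against 942 and 1008 CPM, and eosinophil markers to 250 and 73.4 against 193 and 174 CPM. Fibroblast markers summed to 653 and 1041 against 353 and 549 CPM, and endothelial markers to 64.1 and 73.8 against 54.6 and 55.3 CPM. The 4 pan-leukocyte markers summed to 2992 and 2676 against 2764 and 3009 CPM. None of these lists had the library order of the core and adaptor genes.

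The genes whose profile over the 4 libraries was closest to that of *Cybb*, by root mean square difference of centred log2 CPM among 5340 genes, were *Sh3bgrl3* (0.0111), *Vps28*, *Def8*, *Sub1*, and *Tor1a*. Other oxidase genes followed at rank 68 for *Cyba*, 79 for *Ncf1*, and 309 for *Ncf4*, whereas *Rap1a* ranked 397, *Rac2* 2227, and *Rac1* 2687. *Rac2* was closest to *Snx20* (0.0139), *Cd82*, *Itgb7*, *Trpv2*, and *Lcp2*, and *Rac1* ranked 134 in its list. These likenesses rest on 4 libraries and are a description.

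The rest of the oxidase pathway was read from 10 gene lists, and 0 of their genes passed the adjusted edgeR test with all libraries, while 3 passed without AAV-CTRL 1 (1.07% of all genes) and 11 without AAV-CTRL 2 (9.08%). Of 9 genes for other NADPH oxidases and their partners, 2 were abundant enough to be tested, *Noxo1* with 12, 39, 53, and 30 reads and *Nox4* with 0, 30, 17, and 17 reads (controls first). *Nox3* had 59 reads in AAV-CTRL 1 and at most 5 in each other library. The catalytic gene *Cybb* had 28449 to 56977 reads in the same libraries.

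Among the GTPase relatives, 4 of 8 had a log2 fold change above 0 and 4 below, with a median of 0.0081. *Rhoa* had a value of -0.22, *Cdc42* of -0.14, and *Rap1b*, the paralog of *Rap1a*, of -0.17. Of 13 Rac activators and inhibitors 7 were above 0, with a median of 0.07. *Arhgdib*, which keeps Rac2 soluble in the cytosol, had 909 and 483 CPM in the controls and 523 and 570 CPM in the AAV-mVEGF-C libraries, in the library order of *Cybb*. Its log2 fold change was -0.35 with all libraries (edgeR adjusted p = 0.999) and -0.74 without AAV-CTRL 2 (edgeR adjusted p = 0.043), and it was not called without any other library. *Dock2*, an exchange factor that loads Rac with GTP, had 745 to 801 CPM in all 4 libraries, and *Arhgdia* 309 to 349 CPM.

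Kinases that phosphorylate or recruit the adaptors had a log2 fold change above 0 in 9 of 16 cases, with a median of 0.01. *Prkcd*, *Syk*, and *Akt1* had log2 fold changes of 0.02, -0.03, and 0.02. Of 12 genes for maturation and regulation of the oxidase, 9 were below 0, with a median of -0.06, and the most abundant, *Hspa8*, *Hsp90ab1*, and *Coro1a*, had values of -0.02, -0.06, and -0.07. Receptors that trigger the oxidase were split 7 and 7, with *Fcer1g*, *Itgb2*, and *Itgam* at -0.07, 0.05, and 0.04. The integrin chains *Itgam* and *Itgb2*, which together form complement receptor 3, had 875 and 824 CPM in AAV-CTRL 1, and 592 and 580 CPM in AAV-CTRL 2.

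Of 10 transcription factors linked to oxidase genes, 9 had a log2 fold change above 0, with a median of 0.07. *Spi1*, which encodes PU.1, had 202 and 151 CPM in the controls and 169 and 184 CPM in the AAV-mVEGF-C libraries, in the library order of *Cybb* (log2 fold change 0.0026). *Irf1* had 194 and 267 against 199 and 272 CPM. *Cebpb*, a factor of myeloid and inflammatory gene expression, had 224 and 233 CPM in the AAV-CTRL libraries and 357 and 450 CPM in the AAV-mVEGF-C libraries. These groups did not overlap, an upward separation seen in 16.8% of all genes tested. The edgeR log2 fold change of *Cebpb* was 0.82 (SE 0.18, unadjusted p = 0.0037, adjusted p = 0.999), whereas DESeq2 gave an adjusted p of 0.0238. On the log2(TPM + 1) scale the value was 0.41 (limma, unadjusted p = 0.118). At an unadjusted edgeR p under 0.05, *Cebpb* was the only factor and *Gpx3* the only antioxidant gene, with 0 in each other pathway list. Of all genes tested, 2.64% passed that threshold. Without AAV-CTRL 2 edgeR gave 0.85 (adjusted p = 0.036), but without each of the other 3 libraries it gave 0.65 to 0.99 with adjusted p-values of 0.115 or more.

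Most of the enzymes that supply NADPH were highest in the same library as the oxidase chains. Of 10 such genes 9 had a log2 fold change below 0, with a median of -0.20, 7 had both AAV-mVEGF-C libraries between the controls, and 8 were highest in AAV-CTRL 1. Among all genes tested, 25.7% lay between the controls in this way and 32.6% were highest in AAV-CTRL 1. Among genes with a mean log2 CPM of 5 or more these shares were 27.6% and 43.3%. *G6pdx*, the entry enzyme of the pentose phosphate pathway, had 355 and 175 CPM in the controls and 209 and 219 CPM in the AAV-mVEGF-C libraries. *Tkt* had 693 and 378 against 408 and 488 CPM, and *Taldo1* 396 and 239 against 264 and 313 CPM. These 3 genes had the library order of *Cybb*. The log2 fold change of *G6pdx* was -0.30 with all libraries (edgeR adjusted p = 0.999) and -0.73 without AAV-CTRL 2 (edgeR adjusted p = 0.030), and it was not called without any other library.

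Downstream of superoxide, *Mpo*, which turns hydrogen peroxide into hypochlorous acid in neutrophil granules, had 2115 and 431 CPM in the controls and 1087 and 808 CPM in the AAV-mVEGF-C libraries. Its log2 fold change was -0.42 with all libraries (edgeR adjusted p = 0.999), 1.14 without AAV-CTRL 1, and -1.16 without AAV-CTRL 2 (edgeR adjusted p = 0.042 and 0.027). *Xdh* had 242 and 177 against 240 and 233 CPM and *Epx* 49.6 and 13.5 against 41.0 and 32.8 CPM, and *Epx* had a log2 fold change of 0.23 with all libraries (edgeR adjusted p = 0.999) and of 1.46 without AAV-CTRL 1 (edgeR adjusted p = 0.0036), with no call when another library was left out. Of 4 tested oxidant enzymes 3 were above 0, with a median of 0.20. Among 22 antioxidant genes 14 were below 0, with a median of -0.12, and the abundant *Gpx1*, *Sod1*, and *Prdx5* had log2 fold changes of -0.15, -0.31, and -0.32. Without AAV-CTRL 2 *Sod1* and *Prdx5* were at -0.57 and -0.75 (edgeR adjusted p = 0.046 and 0.028), the only fit with a library left out that called them. *Gpx3*, which encodes secreted glutathione peroxidase, had 104 and 153 CPM in the AAV-CTRL libraries and 42.4 and 66.9 CPM in the AAV-mVEGF-C libraries. The groups did not overlap, a downward separation seen in 15.2% of all genes tested. The log2 fold change of *Gpx3* was -1.23 (edgeR, SE 0.29, unadjusted p = 0.0051, adjusted p = 0.999), with an adjusted p of 0.0033 in DESeq2. It was -1.49 without AAV-CTRL 1 (edgeR adjusted p = 0.0036) and -0.93 without AAV-CTRL 2 (edgeR adjusted p = 0.041), and did not pass the edgeR test without AAV-mVEGF-C 1 (-0.93) or AAV-mVEGF-C 2 (-1.60). The fibroblast markers, at 653 and 1041 against 353 and 549 CPM, had the same order of libraries as *Gpx3*, as did the NK cell and endothelial marker lists, and their part in its value was not tested.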

How the data were processed

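Each of 4 libraries was made from RNA of CD45+ cells sorted from pooled mouse dura, with a stranded total RNA kit for picogram inputs. The authors deposited estimated counts of reads per gene, not normalized (8.18% of values have decimals), and TPM for the same genes. The submitters' processing notes name FastQC, Trimmomatic, DRAGEN, and Picard and the build mm10, without versions, and the counting settings are not given in the sources used here. Library source is labelled single cell, but each table column is 1 bulk library.

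Estimated counts were rounded and tested with edgeR 4.0.16 in R 4.3.3 (TMM, filterByExpr, glmQLFit and glmQLFTest, group only, 4 libraries, Benjamini-Hochberg threshold 0.05). This left 19806 of 55401 genes, with a common dispersion of 0.173. DESeq2 1.42.0, limma 3.58.1 (voom, and log2 TPM with a pseudocount of 1 or 0.1), other filters and scalings, a replicate block, and the omission of each library were alternatives. The fits were tested on simulated data. Exact permutation tests used scipy 1.17.1. Gene positions are those of GENCODE M21 (GRCm38), where 54349 identifiers occur with the same version. Intervals are 95%. Depth was 32520709 to 46409700 reads, and 3 reads was taken as the floor.

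The oxidase genes, the pathway lists, and the marker lists were chosen with earlier results of these data known. The summed level of 1 marker list is not reported here. Named pathway genes are the 3 of highest mean TPM in each list and those with an unadjusted p under 0.05. The experiment numbers do not settle the pairing of pools: same-numbered libraries deviated from their group means with a correlation of -0.134, and the table's column labels number the pools differently.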

Additional observations from a re-analysis of the deposited data

How the results depend on the processing

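The count of oxidase genes called stayed at 0 in each alternative run, with adjusted p-values of 0.837 or more where all libraries were kept. The median log2 fold change of the 7 genes (-0.17) was -0.25 to -0.14 with all libraries, and -0.44 to 0.16 when 1 library was left out. By gene, leaving out 1 library gave -0.45 to 0.17 for *Cybb*, -0.57 to 0.16 for *Cyba*, -0.34 to 0.26 for *Ncf1*, -0.58 to 0.24 for *Ncf4*, -0.44 to 0.024 for *Rap1a*, 0.013 to 0.15 for *Rac2*, and 0.017 to 0.089 for *Rac1*. The sign turned above 0 for these 5 without AAV-CTRL 1, and for *Ncf1* also without AAV-mVEGF-C 1 (0.0089). *Rac2* moved from 0.08 to 0.24 and *Rac1* turned to -0.12 on both TPM scales (pseudocounts 1 and 0.1), where the median of all genes tested was -0.08 and -0.11, a shift to which TPM values are relative. Genes called over the whole table numbered 0 with edgeR, 77 with DESeq2, and 268 with no filter on low counts, and 0 to 1798 when 1 library was left out, the highest without AAV-CTRL 2 and 212 without AAV-CTRL 1. At an unadjusted p under 0.05 there were 523 with edgeR and 681 with limma-voom, each over 19806 genes, and 854 with DESeq2. DESeq2 was run on all 55401 genes and the fit with no filter on 40674, so these counts are over unlike sets. Genes of the pathway lists called numbered 2 with DESeq2 and 2 with no filter (*Cebpb* and *Gpx3* in both), and 0 to 11 with 1 library left out. The ratio of group means with 1 library left out was 1.15 to 1.44 for *Rac2* to *Rac1*, 0.831 to 0.984 for *Cyba* to *Cybb*, and 0.851 to 0.963 for *Ncf4* to *Ncf1*. Summed marker lists as TPM in place of CPM moved by more than the spread between libraries from 1.04 to 0.997 (log2) for plasma cells, -0.34 to -0.59 for NK cells, -0.33 to -0.66 for endothelial cells, and 0.03 to -0.16 for all leukocytes. Shifts over 1.5 times but within that spread were 0.17 to 0.02 for dendritic cells, 0.18 to 0.0060 for eosinophils, -0.16 to -0.30 for monocytes, and -0.23 to -0.40 for border macrophages, and B cells went from -0.62 to -0.92. A replicate block by experiment number gave 11 genes called, 0 of them oxidase genes, and an oxidase median of -0.14, and pairing the pools crosswise, added after seeing the data, gave 54 called. Same-numbered pools had a correlation of -0.134, which with only 2 pairs does not settle whether the experiment numbers pair them, and the block changed no other call. The cause of these shifts was not tested. With 2 pools a group, the 95% intervals of all 7 oxidase genes include 0 and span changes in both directions.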
